A study of Homo sapiens with 12 samples.

Results

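The genes described here make cholesterol and fatty acids or control and distribute their products. They were named as a list of 32 genes, and a gene counted as measured where a probe set carried its symbol alone; where several did, the brightest of them, by mean over the 12 arrays, was used. By that rule 29 of the 32 were measured, among 11963 genes on the arrays. CYP51A1 (lanosterol demethylase) was read only by probe sets that carry a second symbol, LRRD1, and is given apart. FDFT1 and ACSS2 were not analysed here. RNA came from RCC4, a human cell line from clear cell renal carcinoma. Cells received siRNA for 2 days, either against YAP (siYAP; the gene is YAP1, a transcriptional co-activator that Hippo signalling restrains) or a non-targeting control (siNT), and then 1 µM erastin, a blocker of cystine import, or its vehicle DMSO for 7 hours. Every group thus carried an siRNA, and all grew in medium with serum, which supplies cholesterol. Each of the 4 combinations had 3 arrays. The labels do not tell how far the 3 were cultured apart, and p-values speak only of the spread among these arrays. The numbers that open the sample titles are all lower for siNT than for siYAP arrays, and what they stand for is not given. Any order or handling that followed these numbers cannot be told apart from silencing.

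Cholesterol is built from acetyl-CoA through mevalonate, isoprenoid diphosphates, squalene and lanosterol, and fatty acids are built from the same acetyl-CoA pool. The transcription factors SREBP-1 and SREBP-2, encoded by SREBF1 and SREBF2, drive most of these genes: when membrane sterol is low, SCAP escorts them from the endoplasmic reticulum to the Golgi, where they are cut free, and when sterol is high, INSIG1 and INSIG2 hold SCAP back. Clear cell renal carcinoma is known for its store of cholesterol esters and other neutral lipid.

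SREBPs bind sterol regulatory elements, usually beside CCAAT boxes (bound by NF-Y) and GC boxes (bound by Sp1), so the 250 bases before the start of 4 members, a pair that fell and a pair that rose, are printed first. They come from RefSeq (GRCh38.p14), whose table held promoters of 26 of the 29 measured genes. The sequences run 5′ to 3′ on the strand of the gene. Capitals mark these letters on either strand: CCAAT for the first box, GGGCGG for the second, and for the sterol element a short form, TCACNCCAC, and a long form that has C at the open base and an added A in front and so contains the short one. SREBF2 and EBP fell after silencing, and HMGCS1 and SC5D rose.
SREBF2, chr22:41832855-41833104, plus strand: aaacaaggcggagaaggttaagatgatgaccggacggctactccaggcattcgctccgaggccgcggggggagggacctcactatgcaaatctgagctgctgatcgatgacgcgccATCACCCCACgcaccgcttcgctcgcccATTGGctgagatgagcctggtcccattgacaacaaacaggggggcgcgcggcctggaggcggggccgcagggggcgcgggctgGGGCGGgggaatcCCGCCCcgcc
EBP, chrX:48521558-48521807, plus strand: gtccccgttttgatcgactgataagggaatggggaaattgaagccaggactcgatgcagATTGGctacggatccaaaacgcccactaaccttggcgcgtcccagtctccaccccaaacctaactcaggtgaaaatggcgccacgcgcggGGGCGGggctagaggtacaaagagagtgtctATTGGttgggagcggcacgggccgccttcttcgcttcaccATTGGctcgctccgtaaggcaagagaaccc
HMGCS1, chr5:43313413-43313662, minus strand: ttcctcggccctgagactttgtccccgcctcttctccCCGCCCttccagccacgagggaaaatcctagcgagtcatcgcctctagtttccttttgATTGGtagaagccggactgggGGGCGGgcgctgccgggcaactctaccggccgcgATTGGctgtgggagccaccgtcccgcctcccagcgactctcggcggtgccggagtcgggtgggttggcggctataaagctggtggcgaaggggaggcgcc
SC5D, chr11:121292521-121292770, plus strand: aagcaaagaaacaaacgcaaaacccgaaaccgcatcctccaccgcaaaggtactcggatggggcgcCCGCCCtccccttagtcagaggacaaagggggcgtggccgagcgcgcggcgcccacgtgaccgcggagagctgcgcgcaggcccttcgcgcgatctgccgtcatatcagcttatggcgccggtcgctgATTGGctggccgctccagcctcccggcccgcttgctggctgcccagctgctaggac
HMGCS1 and SC5D have 2 listed starts each, and the first listed is shown. IDI1, which fell more than EBP, has 3 listed starts and is not printed. ACAT2, FASN and SQLE had no entry. Sterol elements of other spellings, or outside these 250 bases, were not searched for. SREBF2 was the only one of the 26 with a sterol element of these spellings, 134 to 125 bases before its start; among 9563 genes of the arrays with a listed promoter, the long form stood before any listed start of 5 (0.0523%) and the short form of 117 (1.22%). CCAAT stood in 19 of the 26 (73.1%), against 42.4% of the 9563, and GGGCGG in 25 (96.2%), against 67.6%. CCAAT was in 10 of 14 members called after silencing in either treatment and in 9 of 12 that were not. EBP, which fell, and HMGCS1, which rose, both carry CCAAT more than once as well as GGGCGG.

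Values were RMA values on the log2 scale, from 2.02 to 14.4. YAP1 read 8.47 to 8.65 on the siNT arrays and 4.18 to 6.21 on the siYAP arrays, with no overlap; the highest siYAP reading was that of replicate 2 under erastin. Of 8 markers of renal tubule and clear cell carcinoma, 6 were measured and had group means from 7.99 to 13.6, whereas 14 markers of immune, endothelial, fibroblast and liver cells had group means from 2.23 to 6.24. CA9 and NDUFA4L2 were not analysed here. The log2 difference between the 3′ and 5′ control probe sets of ACTB, a sign of RNA integrity, was 3.35 to 3.71 in siYAP with erastin and 1.49 to 3.14 on the other 9 arrays. The 3 arrays per group limit the precision, and the median standard error of a member's silencing difference in DMSO was 0.0652.

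The first question was how these genes differed between siYAP and siNT cells. The labels name no other siRNA against YAP and no rescue, so loss of YAP and other effects of the siRNA cannot be told apart. In DMSO, 9 of the 29 measured genes fell and 5 rose (a gene is called fallen or risen at a limma adjusted p under 0.05, over all 11963 genes), and under erastin 9 fell and 6 rose. The largest fall was that of ACAT2, the cytosolic thiolase that condenses acetyl-CoA to acetoacetyl-CoA, by 2.3-fold in DMSO and by 2.32-fold under erastin. IDI1, EBP and SREBF2 fell as well, and HMGCS1 and SC5D rose in both treatments. Of the 29, 8 fell in both treatments, 5 rose in both and 0 changed in opposite directions. Over all genes, dim ones included, 11.6% fell in both treatments and 14.6% rose in both. The sign was the same in both treatments for 24 of the 29, and for 73.8% of all genes.

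The share of genes called was 48.3% of the members in DMSO and 51.7% under erastin. Over all genes 33.7% were called in DMSO (18.1% higher, 15.6% lower) and 34.9% under erastin (20% higher, 14.8% lower). With the dimmest 30% of probe sets left out, which kept every member, 47.2% and 48.9% of the remaining 8848 genes were called, so the members' shares lay near that background. The median log2 difference of the members was -0.04 in DMSO, against 0.02 for all genes, and -0.07 under erastin, against 0.01. Only 1 member in DMSO (ACAT2) and 2 under erastin (ACAT2 and SREBF2) were called and changed at least 2-fold, as 2.71% and 2.64% of all genes did. The 3 siYAP arrays and the 3 siNT arrays did not overlap for 19 members (65.5%; 7 higher, 12 lower) in DMSO and for 22 (75.9%; 9 higher, 13 lower) under erastin, against 45.4% and 45% of all genes. For 13 members (5 higher, 8 lower) no siYAP array overlapped any siNT array over both treatments, which held for 28.5% of all genes. These shares over all genes include the dim ones. They were not taken again without the dimmest 30% of probe sets, so an excess among the members cannot be read from them. In bulk RNA of this cell line, a change in some of the cells and a smaller change in all of them cannot be told apart. The ACTB difference given above moved with siYAP under erastin and not with siYAP in DMSO, and its part in the results under erastin was not tested.

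**Figure D1:**
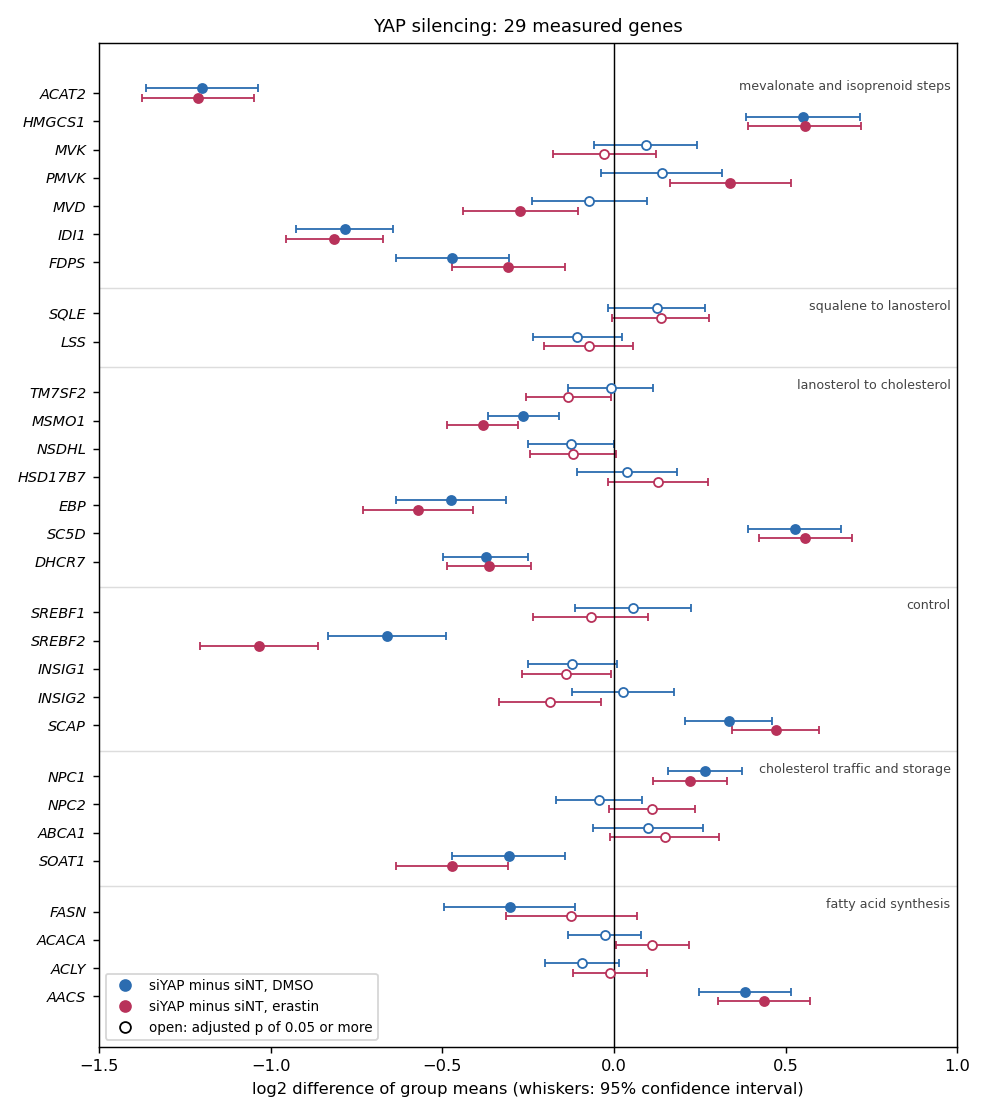
Log2 difference between siYAP and siNT group means (x axis) for the 29 measured genes, ordered by step, in DMSO (blue) and under erastin (red), with 95% confidence intervals from limma; filled points have an adjusted p under 0.05. ACAT2 lies farthest to the left in both treatments, at -1.20 and -1.21, and HMGCS1 and SC5D farthest to the right, between 0.53 and 0.56.

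Among the 7 genes that lead from acetyl-CoA to farnesyl diphosphate, 3 fell and 1 rose in DMSO. With siNT, ACAT2 read 10.18, 10.05 and 10.37 in DMSO and 10.32, 10.18 and 10.22 under erastin. With siYAP, it read 8.97, 9.02 and 9.01 in DMSO and 8.99, 9.08 and 9.01 under erastin. All 6 siYAP arrays lay well below all 6 siNT arrays, with no overlap. The difference was -1.20 (SE 0.075, adjusted p = 1.49e-07) in DMSO and -1.21 (SE 0.075, adjusted p = 1.47e-07) under erastin.

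HMGCS1, which adds another acetyl unit to make HMG-CoA in the step after ACAT2, moved the opposite way. HMGCS1 values were 8.70, 8.42 and 8.61 on the siNT arrays in DMSO and 8.53, 8.46 and 8.63 on those under erastin. They were 9.16, 9.04 and 9.18 on the siYAP arrays in DMSO and 9.05, 9.09 and 9.13 on those under erastin. Every siYAP array was above every siNT array. The difference was 0.55 (SE 0.0759, adjusted p = 9.55e-05) in DMSO and 0.56 (SE 0.0759, adjusted p = 8.62e-05) under erastin. A second HMGCS1 probe set, far dimmer at a mean of 5.12, gave -0.018 (adjusted p = 0.942) and -0.18 (adjusted p = 0.324), so the rise rests on the brighter probe set.

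IDI1 interconverts the isoprenoid units isopentenyl and dimethylallyl diphosphate. The 3 DMSO arrays with siNT gave 9.85, 9.85 and 9.79 for IDI1, and the 3 erastin arrays 9.77, 9.87 and 9.76. Their siYAP counterparts gave 9.03, 9.11 and 9.00 in DMSO and 8.88, 9.11 and 8.96 under erastin. The siYAP arrays were all lower and did not overlap the siNT arrays. The difference was -0.78 (SE 0.065, adjusted p = 1.27e-06) in DMSO and -0.81 (SE 0.065, adjusted p = 1.01e-06) under erastin, and the second probe set gave -0.74 and -0.97. Both are of the kind marked x, whose probes can match related transcripts.

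FDPS, which joins these units to farnesyl diphosphate, fell by 0.47 in DMSO and by 0.31 under erastin (adjusted p = 3.21e-04 and 0.00655). The 3 enzymes between HMGCS1 and IDI1 moved less. MVK, mevalonate kinase, differed by 0.09 (95% confidence interval -0.06 to 0.24) in DMSO and by -0.03 (-0.18 to 0.12) under erastin and was not called. The next kinase, PMVK, differed by 0.14 in DMSO (adjusted p = 0.229) and rose by 0.34 under erastin (adjusted p = 0.00537). MVD, the decarboxylase, differed by -0.07 in DMSO (adjusted p = 0.552) and fell by 0.27 under erastin (adjusted p = 0.0147). Neither gene's silencing effect was shown to differ between treatments (interaction 0.20, adjusted p = 0.591, and -0.20, adjusted p = 0.567).

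**Figure D2:**
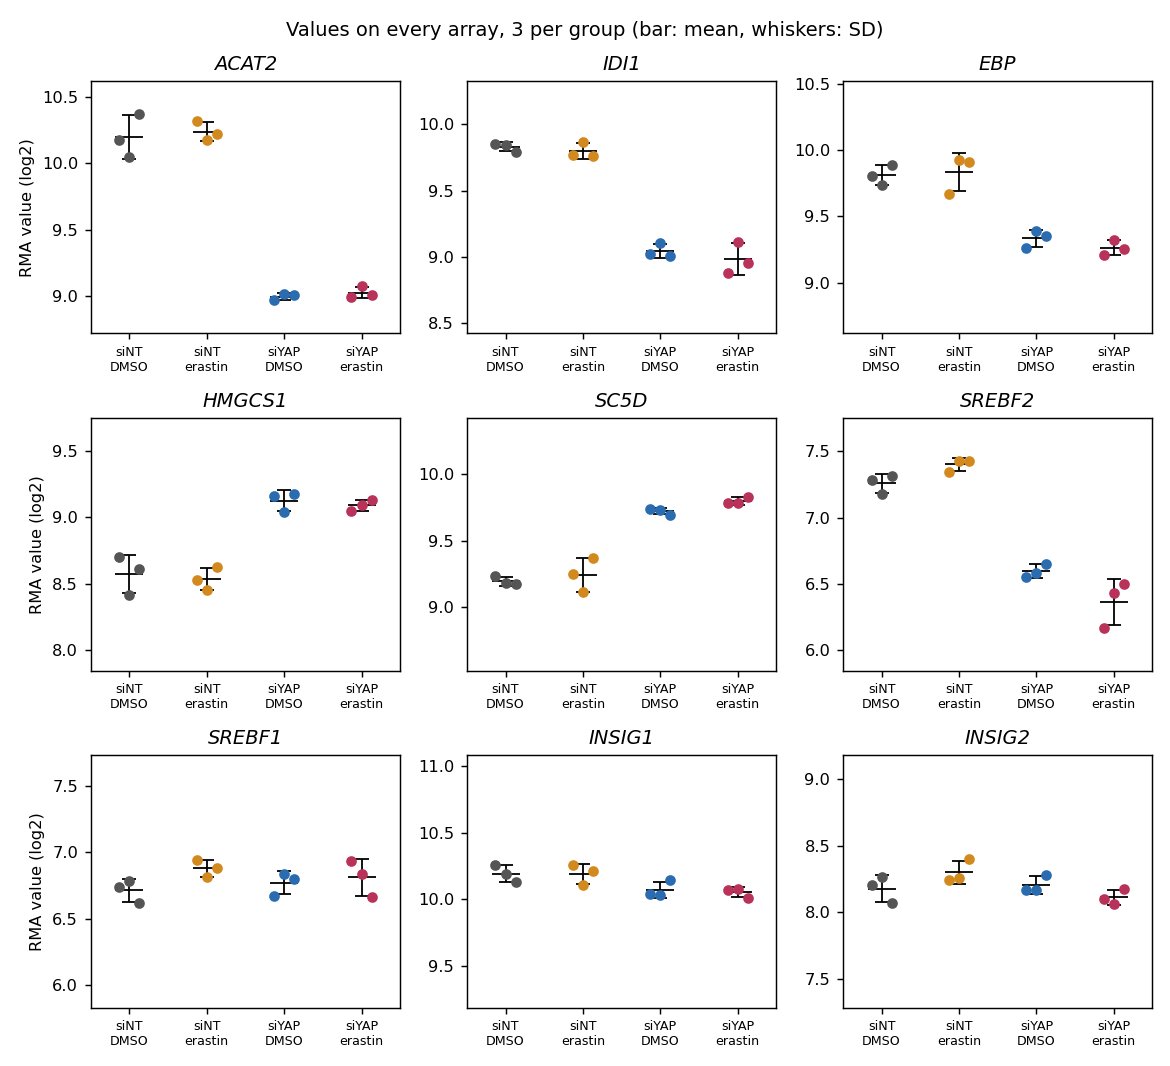
RMA values (log2, y axis) on every array for the 5 enzymes that changed by at least 0.5 in either treatment and the 4 regulators SREBF1, SREBF2, INSIG1 and INSIG2, in the 4 groups (x axis). Points are the 3 arrays of a group, bars their mean and whiskers their SD, and every panel spans the same range of log2 units; ACAT2, IDI1, EBP and SREBF2 are lower and HMGCS1 and SC5D higher on all 6 siYAP arrays.

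With the probe sets used, the steps from squalene to lanosterol showed no called change. SQLE, squalene epoxidase, differed by 0.12 (-0.02 to 0.27) in DMSO and by 0.14 (-0.01 to 0.28) under erastin. LSS, which closes the sterol ring, differed by -0.11 (-0.24 to 0.02) and -0.07 (-0.20 to 0.06). For these probe sets, the intervals leave out a change of the size of ACAT2 or IDI1, but not a small one. Another SQLE probe set, at a mean of 8.26, rose by 0.57 under erastin (limma adjusted p = 0.00698 over all probe sets). A dimmer one, at a mean of 5.75, gave -0.38 there and was not called.

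Of 7 measured enzymes from lanosterol to cholesterol, 3 fell and 1 rose in both treatments. EBP shifts the double bond of the sterol ring, and its fall was among the larger ones. With siNT, EBP read 9.81, 9.74 and 9.89 in DMSO and 9.67, 9.93 and 9.91 under erastin. With siYAP, it read 9.26, 9.39 and 9.35 in DMSO and 9.21, 9.32 and 9.25 under erastin. The siYAP arrays lay below all siNT arrays. The difference was -0.47 (SE 0.0739, adjusted p = 2.53e-04) in DMSO and -0.57 (SE 0.0739, adjusted p = 5.60e-05) under erastin, and both other probe sets had the same sign.

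SC5D, the desaturase that acts next after EBP, rose. SC5D values were 9.23, 9.18 and 9.17 on the siNT arrays in DMSO and 9.24, 9.11 and 9.37 on those under erastin. They were 9.73, 9.73 and 9.70 on the siYAP arrays in DMSO and 9.78, 9.78 and 9.83 on those under erastin. Again the 6 siYAP arrays did not overlap the 6 siNT arrays, this time on the high side. The difference was 0.53 (SE 0.0622, adjusted p = 2.55e-05) in DMSO and 0.56 (SE 0.0622, adjusted p = 1.56e-05) under erastin. A second SC5D probe set, at a mean of 2.99 near the bottom of the scale, gave 0.021 and -0.048, neither called, so this rise too rests on the brighter probe set.

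DHCR7, which carries out the last reduction to cholesterol, fell by 0.37 and 0.36 (adjusted p = 2.02e-04 and 2.41e-04). MSMO1, which starts the removal of the methyl groups at carbon 4, fell by 0.26 and 0.38 (adjusted p = 7.51e-04 and 3.92e-05). Fall and rise thus alternated along this stretch, with EBP and DHCR7 lower and SC5D, which stands between them, higher. The other 3 were not called: NSDHL, a partner of MSMO1 in the same demethylation, differed by -0.13 and -0.12, HSD17B7, the ketosterol reductase of that complex, by 0.04 and 0.13, and TM7SF2, a sterol reductase, by -0.01 and -0.13. For CYP51A1, read together with LRRD1, the brighter probe set differed by 0.20 in DMSO (adjusted p = 0.0669 over all probe sets) and by 0.13 under erastin (adjusted p = 0.23). Over the 16 measured enzymes of cholesterol synthesis, 6 fell and 2 rose in DMSO and 7 fell and 3 rose under erastin.

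Of the 5 control genes, SREBF2 changed most. The 3 DMSO arrays with siNT gave 7.28, 7.18 and 7.31 for SREBF2, and the 3 erastin arrays 7.35, 7.43 and 7.43. Their siYAP counterparts gave 6.55, 6.58 and 6.65 in DMSO and 6.17, 6.43 and 6.50 under erastin. The siYAP arrays were lower without overlap, and lowest in siYAP with erastin. In DMSO the mean was 7.26 ± 0.07 with siNT and 6.59 ± 0.05 with siYAP, and under erastin 7.40 ± 0.05 and 6.37 ± 0.17 (SD, n = 3). The difference was -0.66 (SE 0.0787, adjusted p = 2.67e-05) in DMSO and -1.03 (SE 0.0787, adjusted p = 6.81e-07) under erastin, and the second probe set fell by 0.60 and 0.77.

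SREBF1, whose product drives mainly fatty acid genes, was not called. With siNT, SREBF1 read 6.74, 6.78 and 6.62 in DMSO and 6.94, 6.82 and 6.88 under erastin. With siYAP, it read 6.67, 6.84 and 6.80 in DMSO and 6.94, 6.84 and 6.66 under erastin. The groups overlapped in both silencing comparisons. Its difference was 0.06 (-0.11 to 0.22) in DMSO and -0.07 (-0.24 to 0.10) under erastin.

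SCAP, the escort of the SREBPs, rose by 0.33 and 0.47 (adjusted p = 6.19e-04 and 3.82e-05). INSIG1, itself a target of the SREBPs, was not called with the probe set used. INSIG1 values were 10.26, 10.19 and 10.13 on the siNT arrays in DMSO and 10.25, 10.10 and 10.21 on those under erastin. They were 10.04, 10.03 and 10.14 on the siYAP arrays in DMSO and 10.07, 10.08 and 10.01 on those under erastin. The groups overlapped in DMSO and stood apart under erastin. The difference was -0.12 (-0.25 to 0.01) and -0.14 (-0.27 to -0.01); a dimmer probe set of INSIG1 fell by 0.39 (adjusted p = 0.0055 over all probe sets) and 0.34 (adjusted p = 0.0118).

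INSIG2 is the relative of INSIG1 with the same role as a retention protein. The 3 DMSO arrays with siNT gave 8.21, 8.26 and 8.07 for INSIG2, and the 3 erastin arrays 8.24, 8.25 and 8.40. Their siYAP counterparts gave 8.16, 8.17 and 8.28 in DMSO and 8.10, 8.06 and 8.17 under erastin. The groups overlapped in DMSO, and under erastin all siYAP arrays were below all siNT arrays. The difference was 0.03 (adjusted p = 0.824) in DMSO and -0.19 (adjusted p = 0.0504) under erastin, just short of a call.

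The 4 genes of cholesterol traffic and storage split. SOAT1, which esterifies cholesterol for storage in droplets, fell by 0.31 in DMSO and 0.47 under erastin (adjusted p = 0.00645 and 2.99e-04). NPC1, which moves cholesterol out of lysosomes, rose by 0.26 and 0.22 (adjusted p = 0.00108 and 0.00372). Its lumenal partner NPC2 differed by -0.04 and 0.11, and ABCA1, which exports cholesterol from the cell, by 0.10 and 0.15; neither was called.

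Of the 4 measured genes of fatty acid synthesis, 1 fell and 1 rose in DMSO, and 1 rose under erastin. FASN, fatty acid synthase, fell by 0.30 in DMSO (adjusted p = 0.0167) and differed by -0.12 under erastin (adjusted p = 0.328), and the interaction was not called (adjusted p = 0.656). A dimmer FASN probe set, at a mean of 5.18, gave -0.08 in DMSO (limma adjusted p = 0.558 over all probe sets). Under erastin it gave 0.13 (adjusted p = 0.263), so the fall rests on the brighter probe set. ACACA, acetyl-CoA carboxylase, differed by -0.03 (-0.13 to 0.08) and 0.11 (0.00 to 0.22). ACLY, which splits citrate to acetyl-CoA, differed by -0.09 (-0.20 to 0.01) and -0.01 (-0.12 to 0.10). AACS, which returns acetoacetate to the CoA pool, rose by 0.38 and 0.44 (adjusted p = 3.32e-04 and 1.11e-04).

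Of the 29 members, 16 had further probe sets, 23 in all. In neither silencing comparison was a second probe set called against the direction of a call. In DMSO 4 of the 23 repeated a call, 5 did not, and 2 were called where the probe set used was not, those of INSIG1 and ACLY (-0.21). Under erastin the counts were 4, 4 and 5, the last being INSIG1, ACLY (-0.28), NSDHL (-0.25), ACACA (0.33) and SQLE (0.57). Another SQLE probe set gave -0.38 under erastin and was not called, so the probe sets of this gene did not go one way.

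**Figure D3:**
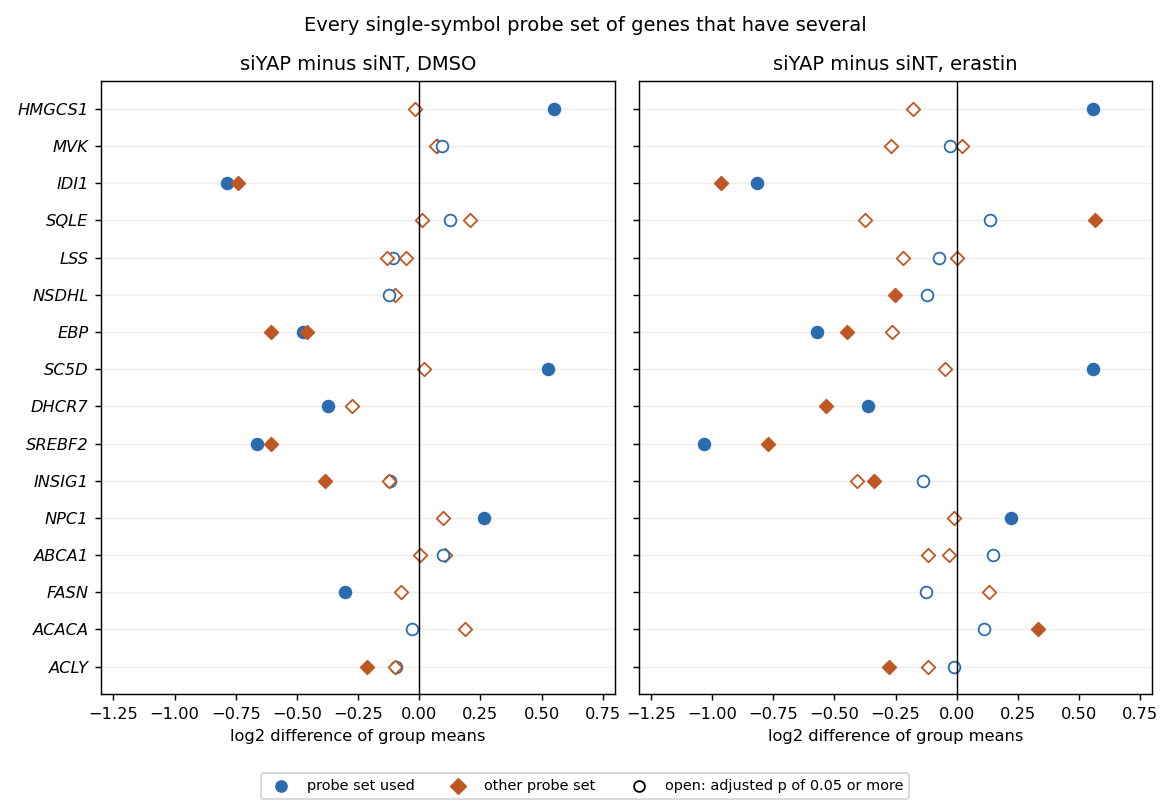
Log2 difference between siYAP and siNT (x axis) for every single-symbol probe set of the 16 genes that have several, in DMSO (left) and under erastin (right). Circles are the probe sets used and diamonds the others, filled at an adjusted p under 0.05 over all probe sets; those of IDI1, EBP, DHCR7 and SREBF2 lie on the same side, and those of HMGCS1 and SC5D lie far from each other.

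The second question was what erastin did. With limma, 0 of the 29 genes were called with erastin in siNT cells and 0 in siYAP cells, where 0.752% (0.485% higher, 0.267% lower) and 0.334% (0.326% higher, 0.00836% lower) of all genes were. At an unadjusted p under 0.05 there were 3 and 5 members (1271 and 1277 of all genes). Differences ran from -0.19 (FASN) to 0.17 (TM7SF2) in siNT cells and from -0.23 (SREBF2) to 0.16 (ABCA1) in siYAP cells. No member's 95% confidence interval reached below -0.40 or above 0.33, so changes of ACAT2's size with erastin lay outside all of them. Erastin and DMSO arrays did not overlap for 10 members (34.5%) in siNT cells and 7 (24.1%) in siYAP cells, against 14.4% and 22.4% of all genes. Here too the shares over all genes include the dim ones. The 10 were TM7SF2, MSMO1, SREBF1, SREBF2 and NPC1, higher with erastin, and LSS, NSDHL, FASN, ACACA and ACLY, lower. All of their adjusted p-values were at least 0.285.

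**Figure D4:**
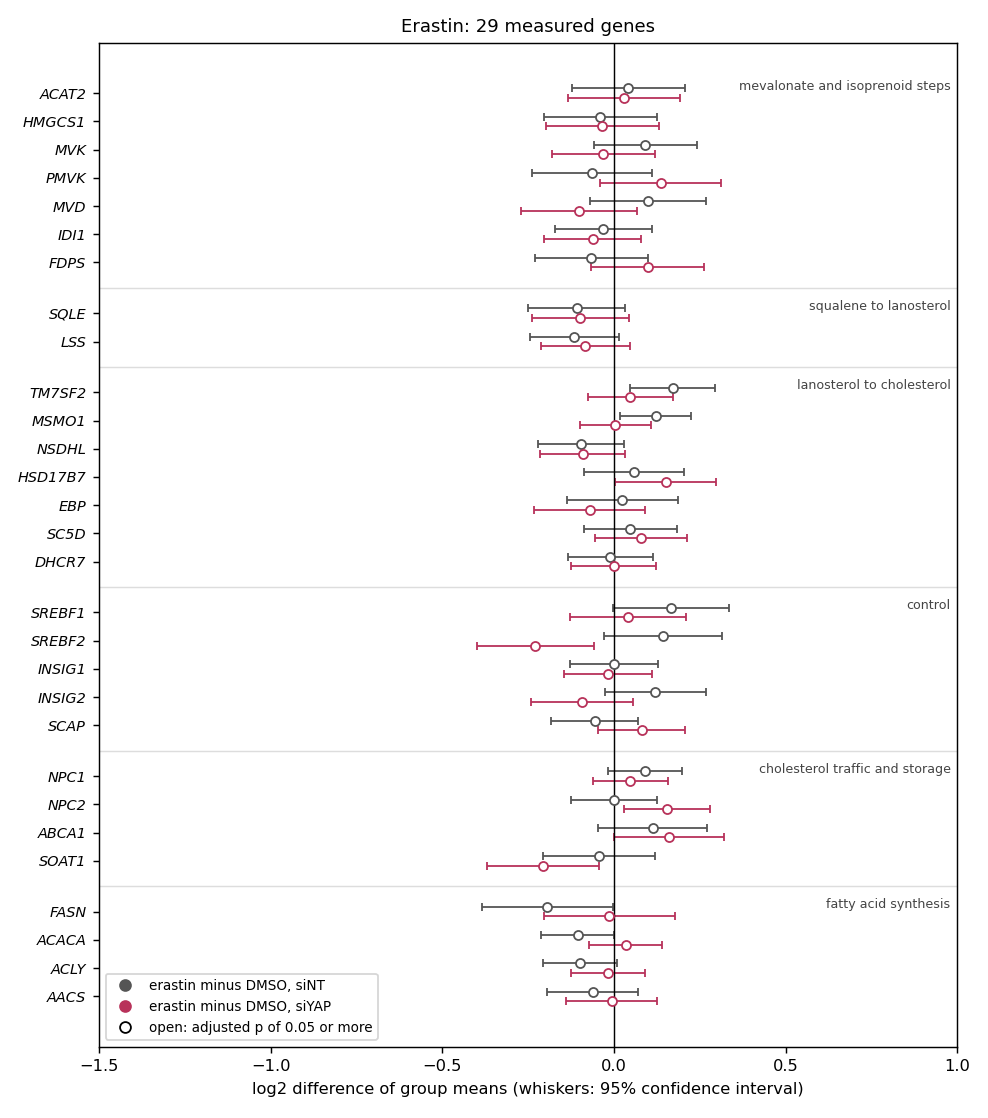
Log2 difference between erastin and DMSO group means (x axis) for the 29 measured genes in siNT (grey) and siYAP cells (red), with 95% confidence intervals, on the same axis as the plot of silencing. All points are open, since none had an adjusted p under 0.05, and all lie between -0.23 and 0.17.

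The last comparison asked whether the erastin response differed between siYAP and siNT cells. No member was called in limma (0 of 29, and 0% of all genes); 2 members, SREBF2 and INSIG2, had an unadjusted p under 0.05 (1179 of all genes did). SREBF2 gave the lowest value, -0.37 (-0.61 to -0.13, adjusted p = 0.422 in limma), and INSIG2 gave -0.21 (-0.42 to -0.00, adjusted p = 0.503). PMVK gave the highest, 0.20. The second SREBF2 probe set, at a mean of 6.81 against 6.90, gave an interaction of -0.17 (adjusted p = 0.69 over all probe sets), with 0.019 for erastin in siNT cells and -0.15 in siYAP cells. Both estimates of the SREBF2 interaction were thus negative, and neither passed the test. Whether their sizes differ was not tested.

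Other genes of lipid synthesis were read through 6 further lists, whose counts stand beside the shares over all genes given above. Each of these genes was read by its brightest single-symbol probe set alone, and any further probe sets of it are not reported here. In fatty acid elongation and desaturation, 3 of 13 measured genes rose and 2 fell in DMSO (median 0.06), and 3 rose and 1 fell under erastin (median 0.05). ELOVL6, which lengthens saturated chains from palmitate, rose by 1.15 and 1.44 (adjusted p = 5.72e-06 and 9.85e-07). SCD, which puts the first double bond into those chains, fell by 0.83 and 0.68 (adjusted p = 1.20e-07 and 5.60e-07). OXSM, of mitochondrial fatty acid synthesis, rose by 0.38 and 0.38. ELOVL6 and SCD, which act on the same chains, thus moved in opposite directions in both treatments.

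Of 10 measured genes of the isoprenoid branch, 1 rose and 1 fell in DMSO (median -0.07) and 2 rose and 2 fell under erastin (median 0.04). ICMT, which methylates the prenylated cysteine of proteins such as RAS, fell by 1.19 and 1.10 (adjusted p = 1.53e-07 and 3.17e-07). GGPS1, which makes geranylgeranyl diphosphate from the product of FDPS, rose by 0.24 and 0.21. Under erastin, DHDDS, of dolichol synthesis, rose by 0.29. PGGT1B, a subunit of a protein prenyltransferase, fell by 0.59 under erastin (adjusted p = 0.0446 in limma). Its siNT arrays under erastin read 5.90, 5.84 and 6.79, so replicate 3 carried much of that difference. Its siYAP arrays under erastin read 5.59, 5.48 and 5.67.

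Of 7 measured genes of SREBP processing and its sterol-sensing partners, 3 rose and 2 fell in DMSO (median -0.18) and 2 rose and 3 fell under erastin (median -0.12). FAF2, which takes part in extracting proteins from the endoplasmic reticulum for degradation, fell by 1.18 and 1.17 (adjusted p = 1.22e-07 and 1.42e-07). ERLIN2, of a complex in the same membrane, fell by 0.52 and 0.48, and the ubiquitin ligase RNF139 rose by 0.47 and 0.60.

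Of 13 measured genes of sterol transport, oxysterols and LXR, 6 rose and 2 fell in DMSO (median 0.11) and 3 rose and 2 fell under erastin (median 0.06). NR1H3, the oxysterol receptor LXR alpha, rose by 0.59 and 0.37, and CYP27A1, a mitochondrial sterol hydroxylase, by 0.57 and 0.47. SCARB2, a lysosomal membrane protein, fell by 0.41 and 0.45. VLDLR, a lipoprotein receptor, was the 1 gene of the 6 lists called with erastin: it rose by 0.42 in siNT cells (adjusted p = 0.0225) and differed by 0.29 in siYAP cells (adjusted p = 0.203), and the interaction was not called (adjusted p = 0.687).

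In fatty acid activation and glycerolipid synthesis 3 of 7 measured genes rose and 0 fell in DMSO (median 0.20), and 2 rose and 1 fell under erastin (median 0.14). ACSL5, an acyl-CoA synthetase, rose by 0.31 and 0.67, and AGPAT2, which makes phosphatidic acid, differed by -0.22 in DMSO (adjusted p = 0.0563) and fell by 0.56 under erastin (adjusted p = 1.33e-04). Of 4 genes of citrate export and NADPH supply, the citrate carrier SLC25A1 rose by 0.33 in DMSO and IDH1 fell by 0.19; under erastin IDH1 alone was called, with a fall of 0.14. The median of these 4 was 0.02 in DMSO and -0.12 under erastin.

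**Figure D5:**
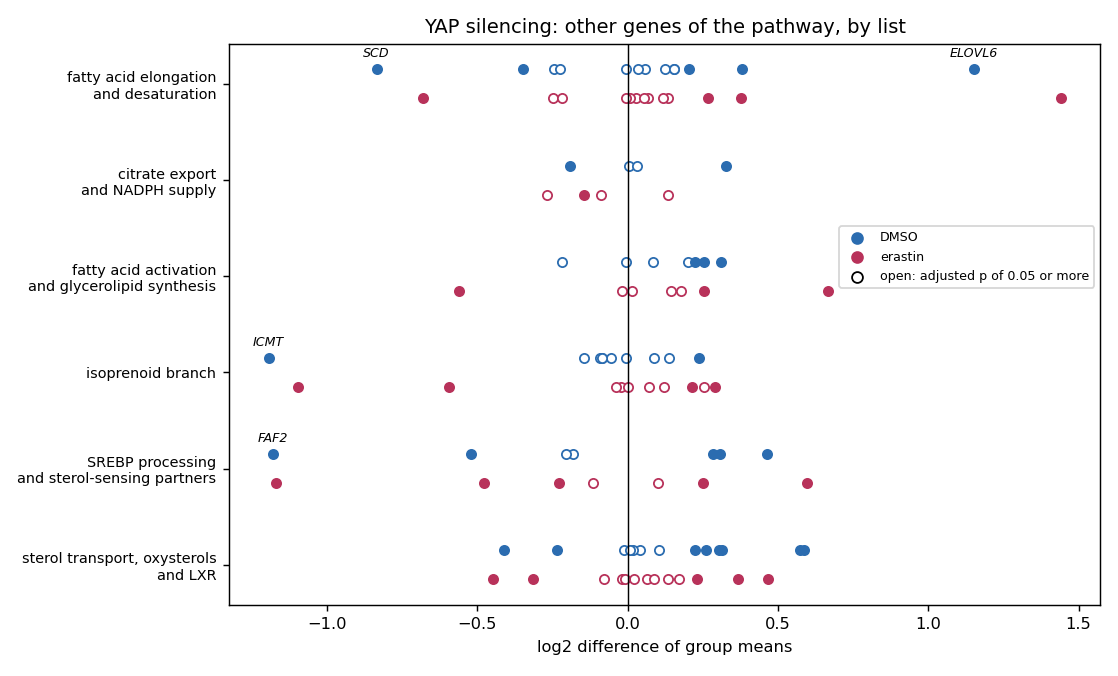
Log2 difference between siYAP and siNT (x axis) for the measured genes of the 6 further lists (y axis), in DMSO (blue) and under erastin (red), filled at an adjusted p under 0.05. ELOVL6 lies farthest to the right, and ICMT, FAF2 and SCD farthest to the left.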

How the data were processed

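Expression was measured on 12 single-channel Affymetrix arrays, 3 for each of 4 groups, which were read from the sample titles. Per the submitters' processing notes, the authors made the values with Affymetrix Expression Console and RMA, with versions and array type not given in the sources used here. The authors deposited log2 values, judged by their range, with array medians from 6.49 to 6.52. RMA equalises arrays, which hides any shift in RNA content per cell, and it compresses differences of dim genes. Platform annotation gave 1 symbol for 19065 of 22277 probe sets; gene identifiers matched a RefSeq table for 19053 and changed 0 symbols.

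Group means were estimated over the 12 arrays together with limma 3.58.1 in R 4.3.3 (8 residual and 4.17 prior degrees of freedom), with Benjamini-Hochberg adjustment over 11963 genes within each comparison. All adjusted p-values are limma's and two-sided. On simulated data for silencing in DMSO over 11963 genes, 50 genes were shifted at each size. Limma called 22% of those shifted by 0.25 and 88% of those shifted by 0.5. Far fewer genes were shifted there than the 4030 called in the data, so these rates are not those of the real comparison. The members and lists were chosen with earlier results of these data known. Every measured member is reported; values on each array are printed for members called with a change of at least 0.5 after silencing, or called with erastin or in the interaction, and for SREBF1, SREBF2, INSIG1 and INSIG2. Up to 3 called genes with the largest change in a comparison are named from each further list, so that a list can have more than 3 names over the comparisons. Alternatives were another set of arrays, a replicate block, 2 scalings, a filter on dim probe sets, probe set rules, another variance model, 2 stricter call rules and leaving out each array.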

Additional observations from a re-analysis of the deposited data

Results flagged for a closer look

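SREBF2 stood out because its arrays, with the probe set used, moved in opposite directions with erastin: in siNT cells all 3 erastin arrays (7.35 to 7.43) lay above the DMSO arrays (7.18 to 7.31), and in siYAP cells all 3 (6.17 to 6.50) lay below them (6.55 to 6.65). The difference between both responses was -0.37 on the log2 scale, and limma's test of that difference did not pass (adjusted p = 0.422). The second SREBF2 probe set, of similar brightness, gave 0.019 with erastin in siNT cells, -0.15 in siYAP cells and -0.17 for the difference between them (limma adjusted p = 0.69 over all probe sets).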

How the results depend on the processing

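The number of members called after silencing was 14 in DMSO and 15 under erastin. It stayed between 13 and 14 and between 15 and 17 in fits to the 6 arrays compared alone, after centring arrays on their medians or quantile normalization, without the dimmest 30% of probe sets, with probe sets averaged per gene, and with a trended and robust variance model. With the replicate number as a block, 14 and 15 were called. Of 18 pairs of same-numbered arrays, 1 correlated above 0.1 in their deviations from the group means (-0.42 to 0.19). Such correlations cannot tell whether same-numbered arrays were cultured or handled together. Leaving out each array gave 13 to 15 and 14 to 16 (14 without siYAP with erastin replicate 2). Called members that changed at least 2-fold numbered 1 in DMSO (ACAT2) and 2 under erastin (ACAT2 and SREBF2). The submitters' zero transformation, with all 3 arrays beyond 1 log2 unit of the control mean, left 1 and 1. Other probe sets did not repeat the rise of HMGCS1 (-0.018 in DMSO, -0.18 under erastin) or of SC5D (0.021 in DMSO, -0.048 under erastin). None of these values was called, and the cause was not tested. The mean over the HMGCS1 probe sets was 0.19 under erastin (adjusted p = 0.0767, limma). No member was called with erastin or in the interaction under any alternative run. Dim probe sets, near 3 to 5 on this scale, limit what second probe sets can show.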
